A study of Mus musculus with 15 samples.

Results

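Sqle, Insig1, Cyp51, Fdft1, Lss, Srebf2 and Stard4 are 7 genes of cholesterol synthesis and uptake, followed here in RNA fractions of mouse macrophages during the first 120 min of a response to lipid A. They were taken by gene symbol from a list named for that pathway, and all 7 were found among the 10020 genes of the deposited exon table. The cells were macrophages grown from the bone marrow of C57BL/6 mice of both sexes in medium with serum and the growth factor M-CSF, and no group carried a genetic change. They were left unstimulated (0 min) or treated for 15, 30, 60 or 120 min with lipid A at 100 ng/ml, the lipid anchor of bacterial lipopolysaccharide and the part its Toll-like receptor senses. At each time RNA was purified from cytoplasm, from the soluble part of lysed nuclei (nucleoplasmic RNA) and from the chromatin pellet, and each was sequenced in a single unreplicated library, 15 in all. Whether the fractions of 1 time share plates, and whether the times were separate cultures, is not stated in the labels. The fractions ask how a transcript's level at the site of synthesis is followed by its level in the soluble nucleus and in the cytoplasm.

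Cells make cholesterol from acetyl-CoA through mevalonate, squalene and lanosterol, and they take it up in lipoproteins. The transcription factor SREBP2, the product of Srebf2, is held in the endoplasmic reticulum by Insig proteins while sterol is plentiful and moves to the nucleus when sterol falls, where it raises the genes of synthesis and uptake, its own gene and Insig1 among them. In macrophages the pathway is known to be under the control of inflammatory and interferon signals as well, partly through hydroxylated sterols made by Ch25h.

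Windows of 250 bases before the annotated start of transcription were read from RefSeq on the build GRCm38.p6 for Insig1, Srebf2, Lss and Cyp51, the 4 of the 7 members whose windows were used here. They are shown as reference for the members described below and were not chosen for their values. They lie at chr5:28071162-28071411 on the plus strand (Insig1), chr15:82147019-82147268 on the plus strand (Srebf2), chr10:76531355-76531604 on the plus strand (Lss) and chr5:4104698-4104947 on the minus strand (Cyp51). Capitals mark matches on either strand to a sterol response type motif (TCACNNCA), an E-box (CACGTG) and a CCAAT box (CCAAT, read as ATTGG on the other strand).
Insig1: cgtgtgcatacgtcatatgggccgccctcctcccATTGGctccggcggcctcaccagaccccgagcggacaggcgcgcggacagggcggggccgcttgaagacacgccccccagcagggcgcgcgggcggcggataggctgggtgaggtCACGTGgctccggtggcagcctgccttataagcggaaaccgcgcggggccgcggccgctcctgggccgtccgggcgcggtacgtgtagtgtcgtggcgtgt
Srebf2: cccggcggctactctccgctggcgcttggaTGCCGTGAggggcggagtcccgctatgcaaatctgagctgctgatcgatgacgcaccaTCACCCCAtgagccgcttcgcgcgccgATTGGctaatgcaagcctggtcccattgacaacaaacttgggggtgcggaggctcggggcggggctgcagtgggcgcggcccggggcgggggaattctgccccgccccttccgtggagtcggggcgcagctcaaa
Lss: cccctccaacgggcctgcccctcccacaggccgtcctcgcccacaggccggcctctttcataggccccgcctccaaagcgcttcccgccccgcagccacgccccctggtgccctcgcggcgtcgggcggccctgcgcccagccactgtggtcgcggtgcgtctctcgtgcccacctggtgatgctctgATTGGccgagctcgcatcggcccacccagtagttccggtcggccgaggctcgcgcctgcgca
Cyp51: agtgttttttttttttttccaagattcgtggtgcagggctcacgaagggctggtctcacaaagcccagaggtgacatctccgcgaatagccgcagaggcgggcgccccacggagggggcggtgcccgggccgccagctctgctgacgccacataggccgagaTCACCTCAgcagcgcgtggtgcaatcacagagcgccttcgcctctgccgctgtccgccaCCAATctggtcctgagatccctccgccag

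Each of the 4 windows held 1 CCAAT box, a motif found in 33.8% of 32851 RefSeq windows of the same length. The sterol response type motif had 2 matches before Srebf2, starting 220 and 162 bases from the transcription start, and 1 before Cyp51, starting 88 bases from it, against 11.4% of windows with any match. The windows of Insig1 and Lss held no match, which says only that these letters are not in them. Insig1 alone of the 4 had an E-box, 101 bases from its start, and 6.02% of windows hold one. GC boxes (GGGCGG, on either strand) numbered 3 before Insig1, 4 before Srebf2, 2 before Lss and 1 before Cyp51, and 32.7% of windows hold at least 1.

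Levels are RPKM, reads per kilobase of exon scaled to the total reads of the library, which the authors computed. Libraries held 38.8 to 52.3 M reads for chromatin RNA, 24.5 to 31.4 M for nucleoplasmic RNA and 15.6 to 19.9 M for cytoplasmic RNA, as recovered from the step of 1 read in the values. Intervals in brackets are exact 95% counting intervals and cover counting error only. Nuclear noncoding RNAs summed to 1516 to 2522 RPKM in chromatin RNA and 17.7 to 46.6 RPKM in cytoplasmic RNA, and 10 of 10 lipid A response genes were higher by 2-fold or more in every fraction. Macrophage markers (10 of 13 listed) summed to 1326 to 1999 RPKM in chromatin, 8900 to 12186 in nucleoplasmic and 1227 to 2672 RPKM in cytoplasmic RNA. Neutrophil markers (7 of 10) summed to 8.75 to 16.9, 67.9 to 80.7 and 35.8 to 75.1 RPKM in the same order, T cell markers (3 of 8) summed to at most 119 RPKM, B cell, dendritic and stromal lists had 1 of 6 genes each in the table, and erythroid and liver lists had none. Their part in the results was not tested, and in bulk RNA fewer cells of a type and less RNA per cell cannot be told apart.

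The libraries also shifted as a whole. The median log2 ratio of all genes to the 0 min library of their fraction was -0.12, -0.40, -0.47 and -0.34 at 15, 30, 60 and 120 min in chromatin RNA (8881 genes). It was -0.07, -0.17, -0.18 and -0.47 in nucleoplasmic RNA (9317 genes) and 0.04, 0.14, 0.39 and -0.49 in cytoplasmic RNA (9239 genes). A log2 ratio here is that of RPKM + 0.5, which understates changes of weakly expressed genes, and a rescaled ratio is the same after this median is subtracted.

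In the nuclear fractions of unstimulated cells the enzymes Sqle and Cyp51 were the most abundant of the 7 per exon length. In nucleoplasmic RNA at 0 min Sqle stood at 47.8 RPKM (46.2 to 49.4), Cyp51 at 36.3 RPKM (35.2 to 37.5) and Srebf2 at 31.3 RPKM (30.3 to 32.3). Lss at 10.98 RPKM (10.3 to 11.7) and Insig1 at 10.4 RPKM (9.67 to 11.2) could not be ordered beyond counting error, and Stard4 at 6.504 and Fdft1 at 2.41 RPKM followed. Chromatin RNA had the same order at lower levels, from 12.05 RPKM for Sqle to 1.53 RPKM for Fdft1, with Lss at 5.89 and Insig1 at 5.87 RPKM again within each other's intervals. Cytoplasmic RNA had another order. There Srebf2 was first at 16.0 RPKM (15.1 to 17.0), and Sqle (9.62), Stard4 (9.37), Lss (9.29), Insig1 (8.53) and Cyp51 (7.80 RPKM) lay close together, each overlapping its neighbours in counting error, while Fdft1 at 1.70 RPKM was far below.

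**Figure D1:**
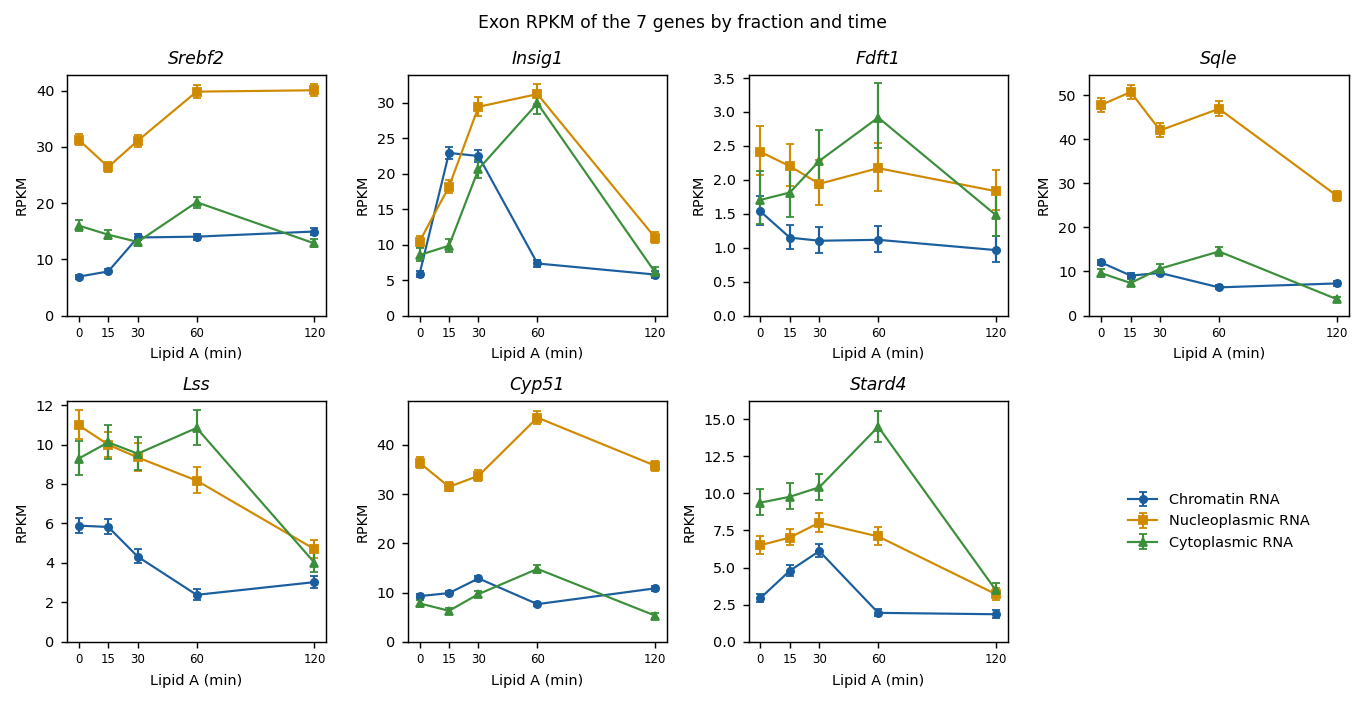
Exon RPKM (vertical axis, from 0, a separate scale for each gene) against minutes of lipid A (horizontal axis) for the 7 genes in chromatin, nucleoplasmic and cytoplasmic RNA. Each point is 1 library and bars are 95% counting intervals. Insig1 is high in chromatin RNA at 15 and 30 min (22.9 and 22.5 RPKM) and highest in cytoplasm at 60 min (29.9 RPKM), Srebf2 stays near 14 RPKM in chromatin RNA from 30 min on, and Sqle and Cyp51 lie far higher in nucleoplasmic than in cytoplasmic RNA.

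Of the regulators, Insig1, the anchor that holds SREBP back in the endoplasmic reticulum, had the widest course of the 7. In chromatin RNA it stood at 5.87, 22.9, 22.5, 7.34 and 5.78 RPKM at 0, 15, 30, 60 and 120 min, so that the libraries of 15 and 30 min were high and that of 120 min was at the starting level. The 15 min value was 3.903-fold the 0 min value (3.60 to 4.24), on 3176 against 715 reads, and its log2 ratio of 1.88 ranked 83 from the highest of 8881 genes. In nucleoplasmic RNA it stood at 10.4, 18.2, 29.4, 31.2 and 10.96 RPKM, and was 2.99-fold its 0 min value (2.75 to 3.27) at 60 min. In cytoplasmic RNA it stood at 8.53, 9.84, 20.6, 29.9 and 6.07 RPKM, and was 3.51-fold (3.12 to 3.95) at 60 min. Chromatin RNA was thus high at 15 and 30 min, which could not be told apart by counting error (0.981-fold, 0.931 to 1.03), and rescaled log2 ratios were 1.99 and 2.25. Nucleoplasmic RNA was alike within counting error at 30 and 60 min (1.06-fold, 0.996 to 1.13). Cytoplasmic RNA was 1.15-fold its 0 min level at 15 min (1.00 to 1.33), and 1.45-fold higher at 60 than at 30 min (1.34 to 1.58).

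Insig1 then stood lower again. From 30 to 60 min its chromatin level was 3.06-fold lower (2.83 to 3.32), a log2 ratio of -1.55 against -0.06 for the median gene, which placed it at the 0.518 percentile of all genes. From 60 to 120 min it was 2.85-fold lower in nucleoplasmic RNA (2.63 to 3.09) and 4.93-fold lower in cytoplasmic RNA (4.36 to 5.58). The whole cytoplasmic library moved in that last step, with a median log2 ratio of -0.87, and Insig1 stood at -2.21 as it was and at -1.34 rescaled. At 120 min it was back within counting error of 0 min in chromatin RNA (0.984-fold, 0.881 to 1.10) and nucleoplasmic RNA (1.05-fold, 0.951 to 1.16), and 1.41-fold lower in cytoplasmic RNA (1.205 to 1.64), which rescaling turned to a log2 ratio of 0.03.

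Srebf2, which encodes the transcription factor SREBP2, followed another course in chromatin RNA. It stood at 6.92, 7.84, 13.9, 14.03 and 14.9 RPKM at 0, 15, 30, 60 and 120 min: the first pair of libraries was low, the last 3 were high and close together. At 120 min it was 2.16-fold its 0 min value (2.02 to 2.30), a log2 ratio of 1.06, or 1.396 rescaled. Its nucleoplasmic levels of 31.3, 26.4, 31.1, 39.8 and 40.1 RPKM were highest in the last 2 libraries, 1.28-fold above 0 min at 120 min (1.23 to 1.34). Its cytoplasmic levels of 16.0, 14.4, 13.1, 20.2 and 12.8 RPKM had no such order, with log2 ratios of 0.32 at 60 min and -0.31 at 120 min that changed sign to -0.07 and 0.18 when rescaled. Between its highest and lowest library Srebf2 differed 2.16-fold in chromatin, 1.52-fold in nucleoplasmic and 1.57-fold in cytoplasmic RNA. Its nucleoplasmic levels at 60 and 120 min were alike within counting error (1.01-fold, 0.967 to 1.05). Its lowest cytoplasmic level, at 120 min, overlapped that at 30 min in counting error (12.1 to 13.6 against 12.3 to 13.9 RPKM).

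Among the enzymes, Fdft1, squalene synthase, the first step committed to sterols, was the weakest. It had 107 to 202 reads a library in chromatin RNA, 138 to 198 in nucleoplasmic and 76 to 152 in cytoplasmic RNA. Its level ran from 0.964 to 1.53 RPKM in chromatin, 1.83 to 2.41 in nucleoplasmic and 1.48 to 2.92 RPKM in cytoplasmic RNA, and no ratio to 0 min reached 2-fold. Of its reference transcript 54.7% is shared with other genes, 33.7% with Gm6781 and 20.9% with Ctsb, a lysosomal protease gene on the opposite strand at 353 to 4439 RPKM. The libraries were made strand-specific, but how reads were assigned to strands and copies is not given in the sources used here, so the values of Fdft1 are uncertain.

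Sqle, squalene epoxidase, a rate-limiting enzyme after squalene, stood at 12.05, 9.06, 9.66, 6.39 and 7.28 RPKM in chromatin RNA from 0 to 120 min. It was lowest there at 60 min, 1.89-fold under 0 min (1.72 to 2.06), and the 4 stimulated libraries all lay below the unstimulated one. The median gene was below 0 min in those 4 libraries as well. Rescaled, the chromatin log2 ratio of Sqle was -0.28, 0.09 and -0.39 at 15, 30 and 60 min. In nucleoplasmic RNA it stood at 47.8, 50.7, 42.0, 46.9 and 27.2 RPKM, with the last library alone far below the rest. In cytoplasmic RNA it stood at 9.62, 7.38, 10.6, 14.5 and 3.70 RPKM, and the 120 min value was 2.60-fold lower than at 0 min (2.19 to 3.09) and 3.93-fold lower than at 60 min (3.35 to 4.61). Against the shift of all genes the log2 ratio of Sqle at 120 min was -0.35, -0.33 and -0.78 in chromatin, nucleoplasmic and cytoplasmic RNA.

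Lss, lanosterol synthase, which closes the sterol rings, was lower late in every fraction. Its levels were 5.89, 5.82, 4.32, 2.38 and 3.03 RPKM in chromatin RNA, 10.98, 9.99, 9.35, 8.17 and 4.70 RPKM in nucleoplasmic RNA and 9.29, 10.1, 9.54, 10.8 and 4.01 RPKM in cytoplasmic RNA. The chromatin level was 2.47-fold under 0 min at 60 min (2.17 to 2.83). At 120 min the nucleoplasmic level was 2.34-fold lower (2.08 to 2.62) and the cytoplasmic level 2.32-fold lower (1.98 to 2.72). Chromatin RNA had its lowest value at 60 min and the others theirs at 120 min, and rescaled log2 ratios at 120 min of -0.52, -0.67 and -0.63 left each of them under 2-fold. Antisense gene 4930483K19Rik overlaps 8.36% of the Lss transcript.

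Cyp51, the lanosterol demethylase, had a narrower range over time than Sqle and Lss in chromatin RNA (1.68-fold) and in nucleoplasmic RNA (1.45-fold between its highest and lowest library). It stood at 9.28, 9.89, 12.9, 7.65 and 10.9 RPKM in chromatin RNA, 36.3, 31.5, 33.7, 45.5 and 35.7 RPKM in nucleoplasmic RNA and 7.80, 6.30, 9.69, 14.8 and 5.31 RPKM in cytoplasmic RNA. The nucleoplasmic and cytoplasmic libraries were both highest at 60 min, at 1.25-fold (1.201 to 1.31) and 1.90-fold (1.71 to 2.11) their 0 min values. Neither reached the 2-fold limit on the log2 scale used, at 0.32 and 0.88, and the cytoplasmic ratio was 0.49 rescaled.

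Stard4, a soluble carrier that moves cholesterol between membranes, was the representative of transport. In chromatin RNA it stood at 2.94, 4.79, 6.11, 1.95 and 1.86 RPKM, above 0 min at 15 and 30 min and below it at 60 and 120 min. At 30 min it was 2.08-fold the 0 min value (1.84 to 2.35), a log2 ratio of 0.94, or 1.34 rescaled, and from 30 to 60 min it was 3.13-fold lower (2.70 to 3.64). In nucleoplasmic RNA it stood at 6.504, 7.03, 8.03, 7.10 and 3.20 RPKM and in cytoplasmic RNA at 9.37, 9.77, 10.4, 14.5 and 3.46 RPKM. The last library was the lowest in both, 2.03-fold (1.75 to 2.35) and 2.71-fold (2.29 to 3.22) under 0 min. Rescaled, the chromatin log2 ratio of Stard4 was -0.02 at 60 min and -0.21 at 120 min. At 120 min it was -0.45 in nucleoplasmic and -0.83 in cytoplasmic RNA, each under 2-fold. Stard4 and Insig1 shared the early high and the step down between 30 and 60 min in chromatin RNA: they were the 2 members lower by 2-fold or more in that step, which 4.2% of all genes were.

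**Figure D2:**
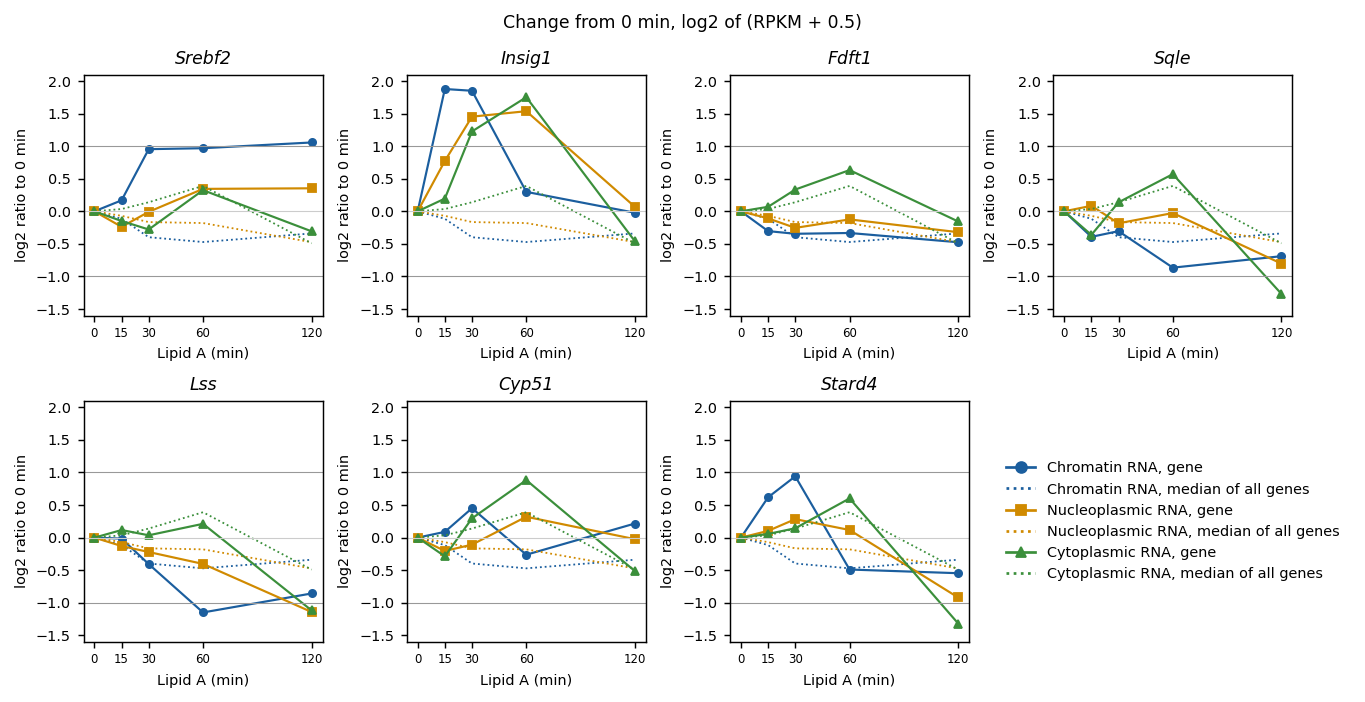
Log2 ratio of RPKM + 0.5 to the 0 min library of the same fraction (vertical axis) against minutes of lipid A (horizontal axis) for each of the 7 genes, 1 library per point. Dotted lines are the median of all genes in the fraction and grey lines mark 2-fold. Insig1 alone passes 2-fold upward in all 3 fractions, Srebf2 passes it in chromatin RNA at 120 min (1.06), and the cytoplasmic points at 120 min lie below 0 for all 7 genes, where the median gene is at -0.49.

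Set against all genes, the members did not move as a block. In chromatin RNA Insig1 and Srebf2 were past 2-fold upward at some time, 2 of 7 against 15.9% of all genes, and Lss was lower, 1 of 7 against 33.5%. In nucleoplasmic RNA Insig1 was higher (10.4% of all genes) and Lss lower (22.5%). In cytoplasmic RNA Insig1 was higher (13.3%) and Sqle, Lss and Stard4 were lower, 3 of 7 against 18.7%. Rescaled, Stard4 joined the higher genes in chromatin RNA (3 of 7 against 23.1%), Insig1 stayed the higher gene in the others (15.4% and 13.9%), and no member was lower (15.9%, 9.51% and 7.52% of all genes). At 15 min Insig1 was the 1 member past 2-fold in chromatin RNA, a size that 2.04% of all genes reached. Before rescaling no member reached 4-fold from 0 min in any library. Rescaled, Insig1 passed it in chromatin RNA at 30 min, at a log2 ratio of 2.25. None of the 7 is among the 560 genes of the authors' table of strongly induced classes.

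The median of the 7 lay near that of all genes in cytoplasmic RNA and above it early in chromatin RNA. In cytoplasmic RNA the members' median log2 ratio was 0.06, 0.14, 0.60 and -0.51 at 15, 30, 60 and 120 min, against 0.04, 0.14, 0.39 and -0.49 for all genes. In chromatin RNA it was 0.09, 0.45, -0.33 and -0.47, against -0.12, -0.40, -0.47 and -0.34. In nucleoplasmic RNA it was -0.11, -0.11, 0.12 and -0.32, against -0.07, -0.17, -0.18 and -0.47. From 60 to 120 min all 7 were lower in cytoplasmic RNA, 5 of them by 2-fold or more (Sqle, Insig1, Cyp51, Lss and Stard4), as were 39% of all genes. Rescaled, 2 of the 7 remained past 2-fold in that step, Insig1 and Stard4, against 5.04% of all genes.

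A line on minutes was fitted in each fraction with limma over 9441 genes that reached 1 RPKM in 3 libraries or more, a filter that all 7 members passed. A slope is the change in log2(RPKM + 0.5) over 60 min, and its p sets the slope against the scatter of times about the lines. No member passed an adjusted p of 0.05 in any fraction, where 21.5%, 17.8% and 13.9% of all genes did in chromatin, nucleoplasmic and cytoplasmic RNA. At an unadjusted p under 0.05 limma gave 2 members in chromatin RNA (Lss and Srebf2), 1 in nucleoplasmic RNA (Lss) and 3 in cytoplasmic RNA (Stard4, Lss and Sqle). The share of all genes at that looser limit is not given here, so these counts do not set the members apart. Lss had a slope of -0.50 ± 0.20 (SE) in chromatin RNA, -0.56 ± 0.20 in nucleoplasmic RNA and -0.56 ± 0.20 in cytoplasmic RNA, with limma adjusted p of 0.0841, 0.0594 and 0.0675. Srebf2 had a slope of 0.50 ± 0.19 in chromatin RNA with a limma adjusted p of 0.0767. Rescaled, both passed in chromatin RNA, Srebf2 rising by 0.65 ± 0.20 (limma adjusted p = 0.0272; 16.4% of all genes rose) and Lss at a slope of -0.35 ± 0.11 (limma adjusted p = 0.0356; 14.3% of all genes fell). Calls also turned on single times. Without the 60 min libraries limma called Lss in all 3 fractions, Srebf2 in chromatin RNA, Sqle in nucleoplasmic and cytoplasmic RNA and Stard4 in cytoplasmic RNA, and without the 120 min libraries Lss, Sqle and Srebf2 in chromatin RNA. The shares of all genes called without those times are not given here. Whether calls rose for all genes alike therefore cannot be told.

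Insig1 shows what a line leaves out: with its high values in the middle of the course, its slopes were -0.54 ± 0.48, -0.11 ± 0.48 and -0.22 ± 0.48 in chromatin, nucleoplasmic and cytoplasmic RNA. No difference in slope between fractions passed for any member (limma, 0 of 7 in each of 3 contrasts, where 0%, 0% and 0.0106% of all genes passed), and none had an unadjusted p under 0.05. The largest was that of Srebf2 between cytoplasmic and chromatin RNA, at -0.56 with a 95% interval of -1.13 to 0.01 (limma adjusted p = 0.813). The intervals of the other members include 0 as well, that of Insig1 from -1.13 to 1.78 for the same contrast, so the fit shows neither a difference between fractions nor that courses were alike. The result rests on the 120 min libraries: without them Lss (1.41, limma adjusted p = 0.00679), Sqle (1.52, limma adjusted p = 0.0133) and Fdft1 (0.94, limma adjusted p = 0.0428) passed for cytoplasmic minus chromatin RNA, and the differences of Lss and Sqle, -0.06 and -0.20 with all libraries, had turned positive. The share of all genes that passed without the 120 min libraries is not given here.

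Differences between fractions passed the test where trends over time did not. With 1 library per fraction and time, the 5 times served as the values of a fraction. Here p sets the mean difference against the variation between times and does not measure variation between replicate preparations. RPKM is scaled to each library's own reads, so these differences are in share of a library, not in amount of RNA per cell. Listed exons held 55.4% to 61.7% of nucleoplasmic, 28.6% to 44.9% of cytoplasmic and 21.0% to 27.5% of chromatin reads. Averaged over the 5 times, Sqle, Cyp51 and Srebf2 were lower in cytoplasmic than in nucleoplasmic RNA (limma, adjusted p under 0.05 and at least 2-fold), 3 of 7 against 16.6% of all genes. Sqle was 4.76-fold lower in cytoplasmic RNA by RPKM, a log2 difference of -2.25 ± 0.22 (SE, limma adjusted p = 2.37e-09). Cyp51 was 4.20-fold lower, at -2.07 ± 0.21 (limma adjusted p = 7.56e-09), and Srebf2 2.17-fold lower, at -1.12 ± 0.20 (limma adjusted p = 3.70e-05). Rescaling left these at -2.26, -2.08 and -1.12. Without the 120 min libraries the log2 difference of Srebf2 was -0.995, just under 2-fold.

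Time by time, nucleoplasmic Sqle was 4.97, 6.87, 3.95, 3.23 and 7.34 times its cytoplasmic level from 0 to 120 min. The ratio for Cyp51 was 4.66, 4.99, 3.48, 3.07 and 6.73, lowest at 60 min and highest at 120 min as for Sqle. Srebf2 had ratios of 1.95, 1.84, 2.37, 1.98 and 3.12. Insig1 was above 1 at all 5 times as well, from 1.04 to 1.85, though its interval at 60 min included 1 (0.975 to 1.12). Over the 5 times the ratio of Lss ran from 0.754 to 1.18, that of Fdft1 from 0.744 to 1.42 and that of Stard4 from 0.490 to 0.926. The limma difference of cytoplasmic minus nucleoplasmic RNA was 0.00 for Lss (95% interval -0.41 to 0.41), -0.06 for Fdft1 (-0.43 to 0.31), -0.50 for Insig1 (-1.05 to 0.06) and 0.48 for Stard4 (0.02 to 0.93; limma adjusted p = 0.0760). Among 9441 genes the nucleoplasmic excess of Sqle stood at the 94.6 percentile, that of Cyp51 at the 93.2 and that of Srebf2 at the 84.5 percentile, and that of Stard4 at the 25.8 percentile.

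**Figure D3:**
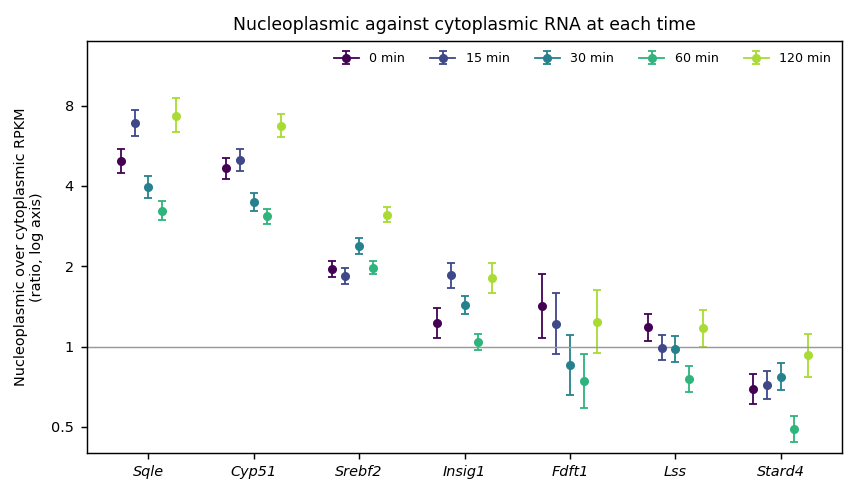
Ratio of nucleoplasmic to cytoplasmic RPKM (vertical log axis) for each of the 7 genes at 0, 15, 30, 60 and 120 min, 1 pair of libraries per point with 95% counting intervals; the grey line marks equal levels. Sqle (3.23 to 7.34), Cyp51 (3.07 to 6.73) and Srebf2 (1.84 to 3.12) lie above 1 at all 5 times, and Lss and Fdft1 lie on both sides. Insig1 (1.04 to 1.85) lies above 1, with an interval that includes 1 at 60 min. Stard4 (0.490 to 0.926) lies below 1, with an interval that includes 1 at 120 min.

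Against chromatin RNA the same 3 genes were higher in nucleoplasmic RNA, Sqle at a log2 difference of 2.21 ± 0.22 (limma adjusted p = 2.53e-09), Cyp51 at 1.81 ± 0.21 (limma adjusted p = 4.33e-08) and Srebf2 at 1.56 ± 0.20 (limma adjusted p = 1.40e-07). That is 3 of 7 where 44.1% of all genes passed, near the share of all genes, and the median gene was 1.85-fold higher in nucleoplasmic RNA. Without the 15 min libraries Lss and Insig1 joined them, both at 1.01. Rescaled, Sqle alone of the 7 passed, at 1.352 against 13.2% of all genes. Cytoplasmic against chromatin RNA gave Stard4 as the 1 higher member, at 1.31 ± 0.22 (limma adjusted p = 9.29e-06), where 40.7% of all genes were higher. Rescaled, Stard4 was at 0.45 and Cyp51 was lower instead, at -1.12 (limma adjusted p = 1.39e-05; 19.4% of all genes). Without the 60 min libraries Stard4 was at 0.99 in that contrast, and Lss passed as well without those of 0, 15 or 120 min (1.03, 1.001 and 1.10). The shares of all genes called with a time left out are not given here, so these added calls do not set Lss or Insig1 apart.

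Lists of the wider pathway place the members among their neighbours, and their counts include the members themselves. Of 20 measured enzymes of cholesterol synthesis, 0 were higher and 5 lower by 2-fold or more at some time in chromatin RNA, 1 higher and 5 lower in nucleoplasmic RNA, and 1 higher and 7 lower in cytoplasmic RNA. Of all genes 15.9%, 10.4% and 13.3% were higher and 33.5%, 22.5% and 18.7% lower in the same order, the shares against which this and the other lists below are to be read. Sqle, Fdft1, Lss and Cyp51 are among the 20, and the lower counts hold Lss in all 3 fractions and Sqle in cytoplasmic RNA. The lower genes also included Dhcr7, a reductase of the last steps, in all 3 fractions and Mvd, a decarboxylase of the mevalonate part, in nucleoplasmic and cytoplasmic RNA. Dhcr7 fell in nucleoplasmic RNA with a slope of -0.70 ± 0.18 (limma adjusted p = 0.0167), from 37.2 to 12.7 RPKM. The median log2 ratio of the 20 at 120 min was -0.44, -0.39 and -0.68 in chromatin, nucleoplasmic and cytoplasmic RNA, or -0.10, 0.08 and -0.19 rescaled. Rescaled, 2, 1 and 0 were higher, against 23.1%, 15.4% and 13.9% of all genes. In the same order 0, 1 and 1 were lower, against 15.9%, 9.51% and 7.52%.

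Of 13 measured genes of SREBP processing and its control, 3 were higher in chromatin RNA (Srebf2, Insig1 and Rnf139) and 2 lower, with Rnf139 in both counts at different times. Rnf139, a sterol-regulated ubiquitin ligase of the endoplasmic reticulum, had chromatin levels of 4.17, 3.11, 1.79, 3.22 and 15.5 RPKM, and it rose there by 1.03 ± 0.30 (limma adjusted p = 0.0231). In nucleoplasmic RNA 2 of the 13 were higher and 0 lower, and in cytoplasmic RNA 1 was higher and 3 were lower (10.4% and 22.5%, and 13.3% and 18.7% of all genes). Srebf2 and Insig1 are members, and Insig1 was among the higher genes in every fraction. Rescaled, 5, 3 and 2 were higher in chromatin, nucleoplasmic and cytoplasmic RNA, against 23.1%, 15.4% and 13.9% of all genes. No gene of this list was then lower, against 15.9%, 9.51% and 7.52%. Srebf1, which encodes the related factor of fatty acid synthesis, had 5.57 RPKM in unstimulated cytoplasm and 2.04 RPKM there at 120 min, which gave -1.26 on the log2 scale (-0.77 rescaled). In chromatin RNA it stayed under 2-fold unless rescaled (1.07 at 60 min).

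Uptake and transport genes went both ways. Of 14 measured, 5 were higher and 2 lower in chromatin RNA, 1 higher and 2 lower in nucleoplasmic RNA, and 3 higher and 6 lower in cytoplasmic RNA. The member Stard4 is among those 6. All genes had 15.9% higher and 33.5% lower in chromatin, 10.4% and 22.5% in nucleoplasmic, and 13.3% and 18.7% in cytoplasmic RNA. Gramd1a, a protein that carries cholesterol from the plasma membrane inward, rose in all 3 fractions with slopes of 1.06, 1.14 and 0.72 (limma adjusted p of 0.00227, 0.00188 and 0.0315). Rescaled, 6 were higher and 2 lower in chromatin RNA, and 2 and 2 in each of the others. The rescaled shares of all genes were 23.1% higher and 15.9% lower in chromatin, 15.4% and 9.51% in nucleoplasmic, and 13.9% and 7.52% in cytoplasmic RNA.

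Far outside these ranges was Ch25h, which makes a hydroxylated cholesterol that holds SREBP processing back. In chromatin RNA it had 0.145 RPKM on 9 reads in unstimulated cells, 4.63 RPKM after 60 min and 11.96 RPKM on 627 reads after 120 min, an 82.6-fold ratio (43.2 to 182). Nucleoplasmic RNA went from 0.696 to 34.9 RPKM over the same times. Cytoplasmic RNA had 0.142 RPKM on 3 reads and then 4.66 RPKM, a ratio of 32.7 (10.9 to 161). The other measured genes of its list, Cyp27a1, Soat1 and Nceh1, were lower by 2-fold or more in chromatin and cytoplasmic RNA (33.5% and 18.7% of all genes). Rescaled, 1 of them was so in each (15.9% and 7.52% of all genes). Of 9 measured genes of efflux and of the sterol-sensing receptor LXR, 0 were higher in any fraction and 4, 3 and 4 were lower, against 33.5%, 22.5% and 18.7% of all genes. Rescaled, 1, 0 and 1 of the 9 were higher, against 23.1%, 15.4% and 13.9% of all genes, and 2, 2 and 1 lower, against 15.9%, 9.51% and 7.52%. Abca1, the exporter of cholesterol to lipid-poor apolipoprotein, had 24.3, 22.8, 27.3, 24.0 and 14.5 RPKM in chromatin RNA, under 2-fold from its start. Mylip, a ubiquitin ligase induced by LXR, fell in chromatin RNA from 8.94 to 3.18 RPKM (slope -0.76, limma adjusted p = 0.0433). Fatty acid synthesis, tested for comparison in 13 genes, had 0 higher and 6, 6 and 7 lower, against 33.5%, 22.5% and 18.7% of all genes lower. These were led by the desaturase Scd2, from 25.2 to 5.84 RPKM in chromatin RNA. Rescaled, 4, 3 and 3 of these 13 were lower and 0 higher, where 15.9%, 9.51% and 7.52% of all genes were lower.

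**Figure D4:**
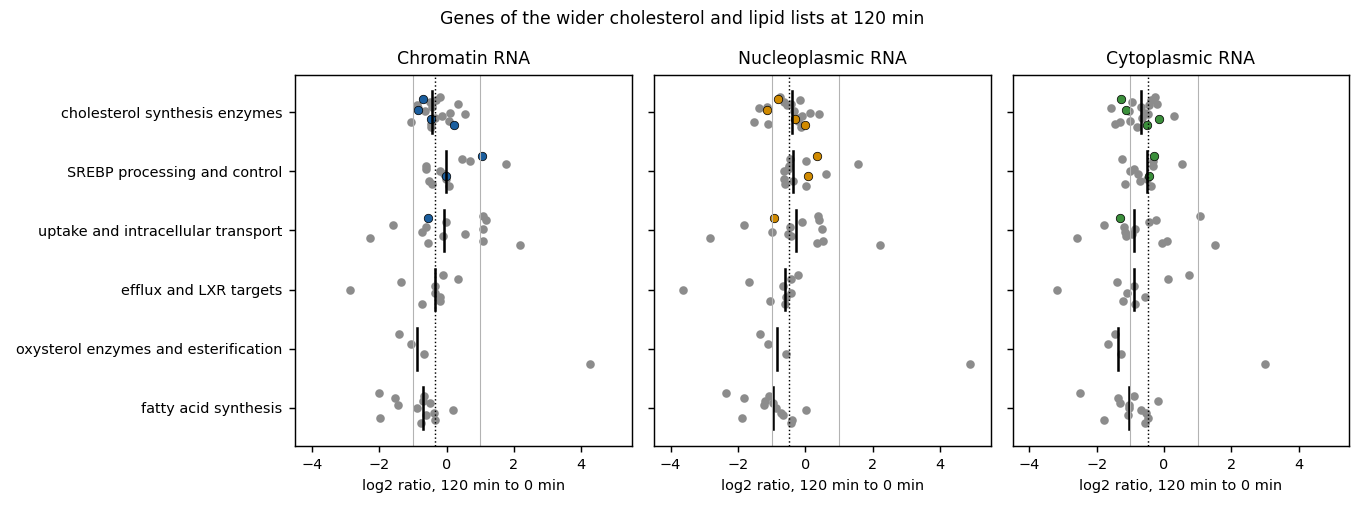
Log2 ratio at 120 min to 0 min (horizontal axis) for the genes of 6 lists (rows) in chromatin, nucleoplasmic and cytoplasmic RNA, 1 point per gene; coloured points are the 7 genes described here, black bars the median of each list, the dotted line the median of all genes and grey lines 2-fold. The 7 genes lie on both sides of the dotted line in chromatin RNA, while Ch25h lies far to the right at 4.27, 4.89 and 3.005.

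The genes whose log2 ratios over the 12 stimulated libraries lay nearest to the members' median were Renbp, at a root mean square difference of 0.11, Stat6 at 0.14, and Tmco6, Ubl3 and Tollip at 0.16 to 0.17. The members themselves lay farther off, from 0.26 for Cyp51 to 1.07 for Insig1, whose rank by nearness was 8539 of 9441 genes. The nearest gene to Insig1 alone was Ier5, an immediate early gene, at 0.41. Its chromatin levels of 4.88, 15.1, 15.4, 5.73 and 3.38 RPKM were likewise high at 15 and 30 min only, but its cytoplasmic level was highest at 30 min (26.3 RPKM) where that of Insig1 was highest at 60 min. Itpkc and Plk3 followed at 0.44 and 0.45. These are descriptions of likeness over libraries that share fractions and times.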

How the data were processed

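RNA of 3 fractions at 5 times of lipid A was sequenced in 15 libraries from mouse bone marrow-derived macrophages, without replicates. Per the labels' protocols, RNA was depleted of ribosomal RNA and strand-specific libraries were made with dUTP; per the submitters' processing notes, reads were aligned with TopHat to mm9. Their counter and annotation are named in none of the sources read. Exon RPKM values were computed by the authors. Whole reads were recovered for 10019 of 10020 genes (tolerance 0.02 reads), and 3 columns that matched no sample were not used.

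Ratios to 0 min used RPKM + 0.5 for genes that reached 1 RPKM somewhere in a fraction, called at 2-fold, with no test. limma 3.58.1 in R 4.3.3 (trended prior, Benjamini-Hochberg over all genes tested) fitted lines on time with 9 residual degrees of freedom, and fractions with time as a factor. Its p-values measure the spread between times, which may be technical or a course that is not a line. The fits were also run on simulated data with straight courses and no shift of whole libraries. That run does not show how they perform on shifted libraries or curved courses.

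All 7 members are described in full. Of the other lists, genes past 2-fold may be named, with a few genes such as Ch25h, Abca1 and Srebf1 named in any case, and the 5 genes nearest to the members' median. Some genes that the list counts include are not reported here by name. Ier5, Itpkc and Plk3 were named after their values were seen. Members and lists were chosen with earlier results of these data known. Pseudocount, filter, scaling, fold, base, time scale and left-out times were varied.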

Additional observations from a re-analysis of the deposited data

How the results depend on the processing

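There were no replicates to pair. The fit of fractions is paired by time: it sets the 3 fractions of 1 time against each other, with time as a factor. Whether those fractions share plates is not stated. The number of members past 2-fold (3 in chromatin, 2 in nucleoplasmic, 4 in cytoplasmic RNA) was 0 in each fraction at 4-fold. It was 1 in nucleoplasmic and 1 in cytoplasmic RNA after rescaling, and 1 in chromatin RNA with the mean of 0 and 15 min as the base. With 1 time left out it ran from 2 to 3, from 1 to 2 and from 1 to 4, lowest without 120 min in nucleoplasmic and cytoplasmic RNA, and was 1 in cytoplasmic RNA without both 60 and 120 min, chosen after seeing the data. Trends, 0 in the fit reported, numbered 2 in chromatin RNA rescaled and 1 with the order of times. With 1 time left out they ran from 0 to 3 in chromatin (3 without 120 min, 2 without 60 min), from 0 to 2 in nucleoplasmic and from 0 to 3 in cytoplasmic RNA (both highest without 60 min). Slope differences of cytoplasmic minus chromatin RNA ran from 0 to 3, with 3 without 120 min (Lss, Sqle and Fdft1). There Sqle ran from -0.41 to 1.52 and Lss from -0.26 to 1.41, both positive without 120 min. Fraction differences of nucleoplasmic minus chromatin RNA went from 3 to 1 rescaled and ran from 3 to 5 (5 without 15 min); those of cytoplasmic minus chromatin RNA went from 1 to 2 at a pseudocount of 0.1 RPKM and ran from 0 (without 60 min) to 2. The shares of all genes called with a time left out are not given here, and the causes were not tested. Over all alternatives 107 counts stayed within 1.5 times the reported count, among them counts of 0 that stayed 0, and 23 moved. Depth limits Fdft1, at 76 to 202 reads a library.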
